A study of Mus musculus with 108 samples.

Results

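The 10 genes described here make fatty acids from sugar carbon or set how much of that machinery is made: Srebf1, Mlxipl, Acly, Acaca, Fasn, Elovl6, Scd1, Me1, Thrsp and Gpam. They were taken by symbol from a table of read counts for 55416 genes, in which each of the 10 has 1 row, and all 10 passed the filter on low counts in every tissue. The RNA came from the liver, the kidney or the white adipose tissue, WAT below, of C57BL/J males that were 8 to 12 weeks old, kept in 12 h of light and 12 h of dark with free food and water. The genotypes are labelled Bmal1-flox and Bmal1-iKO, called flox and iKO below, and the labels list no treatment. Mice were sampled at ZT2, ZT6, ZT10, ZT14, ZT18 and ZT22, where ZT counts hours from lights on, with 3 libraries for each tissue, genotype and time. Bmal1 (gene symbol Arntl) encodes a core activator of the circadian clock. The title of the series places the clock in question in the intestine, but the labels name neither the promoter that drove the deletion nor the cells that lost Bmal1. They also do not say whether the 3 libraries of a group came from separate mice, and p-values therefore reflect only how far these libraries spread, which may be technical.

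De novo lipogenesis turns citrate from sugar breakdown into palmitate and then into longer, unsaturated and esterified fatty acids. In the liver it is driven after a meal by 2 transcription factors, SREBP-1c, encoded by Srebf1 and switched on by insulin, and ChREBP, encoded by Mlxipl and switched on by sugar. ATP citrate lyase (Acly) releases acetyl-CoA in the cytosol, acetyl-CoA carboxylase 1 (Acaca) makes malonyl-CoA, and fatty acid synthase (Fasn) joins these into palmitate with NADPH that malic enzyme 1 (Me1) helps to supply. ELOVL6 (Elovl6) lengthens palmitate, SCD1 (Scd1) puts in the first double bond, and mitochondrial glycerol-3-phosphate acyltransferase (Gpam) takes the first step towards triglyceride. Thrsp, or Spot 14, is a small protein that responds to thyroid hormone and carbohydrate and promotes lipogenesis. Both liver and adipose tissue are known for this pathway, and nocturnal mice eat mostly in the dark.

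On GRCm38 in the GENCODE M21 annotation, matched by gene identifier, 4 of the 10 genes lie on chromosome 11. These are Srebf1 (ENSMUSG00000020538, chr11:60199089-60222581, minus strand), Acaca (ENSMUSG00000020532, chr11:84129672-84401651, plus strand), Acly (ENSMUSG00000020917, chr11:100476353-100528000, minus strand) and Fasn (ENSMUSG00000025153, chr11:120805846-120824547, minus strand). Scd1 (ENSMUSG00000037071, chr19:44394455-44407879) and Gpam (ENSMUSG00000024978, chr19:55067268-55127238) are both on the minus strand of chromosome 19. The others are Mlxipl (ENSMUSG00000005373, chr5:135089890-135138382, plus strand), Elovl6 (ENSMUSG00000041220, chr3:129532355-129638495, plus strand), Me1 (ENSMUSG00000032418, chr9:86581371-86695953, minus strand) and Thrsp (ENSMUSG00000035686, chr7:97412938-97417730, minus strand). The counts are per gene, so they do not separate the isoforms of Srebf1 or Mlxipl, and a gene on the opposite strand overlaps Acaca over 19126 bases (Gm11437) and Gpam over 18314 bases (AC110206.1), whose reads cannot be told apart if the counting ignored strand.

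RefSeq promoters of the GRCm38.p6 build, running from 250 bases before to 50 bases after a start site, were found for 9 of the 10 genes, 14 promoters in all, and Scd1 had no entry. Of the 6 genes whose liver counts fell in iKO, as described below, 4 had a promoter that holds the CCAAT box, the motif of the SREBP partner factor NF-Y, and 1 such promoter of each was chosen to show where it falls. The promoters of Elovl6 and Acaca held no match, nor did another promoter of Srebf1 and another of Gpam. The only Acaca window, chr11:84195188-84195487, lies inside the gene, which starts at 84129672, so its upstream start was not searched. A further promoter of Srebf1, chr11:60210422-60210721, held the box too and is not printed. Each printed promoter runs 5′ to 3′ on the strand of its gene, and capitals mark CCAAT on that strand or ATTGG, its reverse.
Fasn, chr11:120824498-120824797, minus strand: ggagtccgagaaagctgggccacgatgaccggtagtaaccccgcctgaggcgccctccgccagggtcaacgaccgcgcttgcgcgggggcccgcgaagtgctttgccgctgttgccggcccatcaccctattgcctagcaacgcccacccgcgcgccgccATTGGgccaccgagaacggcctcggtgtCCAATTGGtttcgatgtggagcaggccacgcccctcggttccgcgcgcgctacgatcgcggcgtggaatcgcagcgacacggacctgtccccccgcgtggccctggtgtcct
Thrsp, chr7:97417501-97417800, minus strand: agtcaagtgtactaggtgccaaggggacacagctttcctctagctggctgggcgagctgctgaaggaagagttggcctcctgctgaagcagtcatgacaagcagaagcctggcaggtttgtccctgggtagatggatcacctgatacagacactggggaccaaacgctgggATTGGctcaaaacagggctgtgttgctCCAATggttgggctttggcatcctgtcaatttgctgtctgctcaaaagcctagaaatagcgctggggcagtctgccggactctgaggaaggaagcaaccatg
Srebf1, chr11:60222532-60222831, minus strand: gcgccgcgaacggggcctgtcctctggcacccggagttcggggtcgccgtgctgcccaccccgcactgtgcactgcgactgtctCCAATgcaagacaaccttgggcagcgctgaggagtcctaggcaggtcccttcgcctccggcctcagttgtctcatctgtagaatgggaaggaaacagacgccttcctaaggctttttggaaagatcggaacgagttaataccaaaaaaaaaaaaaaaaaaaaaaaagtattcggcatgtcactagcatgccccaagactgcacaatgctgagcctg
Gpam, chr19:55127189-55127488, minus strand: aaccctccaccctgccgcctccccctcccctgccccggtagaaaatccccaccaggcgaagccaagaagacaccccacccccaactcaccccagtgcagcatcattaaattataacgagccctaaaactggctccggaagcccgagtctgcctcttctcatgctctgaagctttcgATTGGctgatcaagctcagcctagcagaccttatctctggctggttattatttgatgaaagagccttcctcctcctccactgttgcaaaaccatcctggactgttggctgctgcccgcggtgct
The last 50 bases of each run lie after the start site. Fasn holds 3 matches, the nearest pair of which overlap as one palindrome, Thrsp holds 2 and Srebf1 and Gpam hold 1 each. Over all members, CCAAT was found on either strand in 8 of 14 promoters, from 7 genes, against 12289 of 32851 RefSeq promoters of the same length, or 37.4%. The 7 genes are these 4 and Acly, Me1 and Mlxipl, which were not called in liver over all libraries. The box was therefore not particular to the genes that fell.

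The E-box CACGTG, a sequence that BMAL1 with CLOCK and other factors of the same family can bind, reads the same on both strands and was found in 1 of the 14 promoters, and in 2349 of 32851 overall (7.15%). That promoter belongs to Mlxipl and is printed to show the one E-box found, in capitals.
Mlxipl, chr5:135089640-135089939, plus strand: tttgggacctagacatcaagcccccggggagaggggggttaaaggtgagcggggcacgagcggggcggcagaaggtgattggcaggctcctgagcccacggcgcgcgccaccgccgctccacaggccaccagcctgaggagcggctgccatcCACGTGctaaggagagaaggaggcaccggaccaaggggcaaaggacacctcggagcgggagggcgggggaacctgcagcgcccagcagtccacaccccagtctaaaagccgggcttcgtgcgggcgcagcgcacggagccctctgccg
Searched on both strands, an SREBP element written TCACNCCAC was found in 1 of 14, another start site of Mlxipl (408 of all promoters, 1.24%), and the DR4 repeat of the liver X receptor, AGGTCA repeated after 4 free bases, in 0 of 14 (5 of all, 0.0152%). These matches describe the letters in the windows and are not binding sites shown by these data.

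Libraries held 13876000 to 24415000 counts on genes. Arntl ran from 2.13 to 24.4 CPM, the gene's count scaled to the size of its library, in flox liver and from 2.05 to 20.1 CPM in iKO liver, and its ranges overlapped in kidney and WAT too; gene totals do not show which exons were read, so they do not check the labels. In 11 liver libraries, called the 11 set-apart libraries below, the mean of 24 cell cycle genes was 2.76 to 3.46 log2 CPM, against −0.93 to 0.61 in the other 25, with a line drawn at 2. They are flox ZT6 1, flox ZT22 1 and 9 of 18 iKO libraries, namely 1 and 2 of ZT6, ZT14 and ZT18 and all 3 of ZT22. At ZT22 the genotypes therefore cannot be compared outside this state, and within it flox has only 1 library. Means of 12 macrophage markers (6.19 to 7.46 against 1.58 to 5.14 log2 CPM) and 18 interferon-stimulated genes (5.29 to 6.99 against 2.28 to 4.65) were also higher in them, while 10 hepatocyte markers had 11 to 12.7 against 12.1 to 12.7. Kidney libraries that match these 11 in genotype, time and number showed interferon-stimulated means of 4.51 to 7.04 log2 CPM against 1.84 to 4.71. Liver results are given with all 36 libraries and with the other 25. In kidney and WAT the libraries that match the 11 in genotype, time and number were left out likewise. The labels do not say whether such libraries came from the same mouse. Their deviations from the group mean correlated at a median of 0.0869 between liver and kidney and 0.0295 between liver and WAT, over 36 combinations. The other 25 hold 3 iKO libraries at ZT2 and at ZT10, 1 at ZT6, ZT14 and ZT18 and none at ZT22, so without the 11 a genotype average covers 5 times, and a lone library is taken to vary as the other groups do. Xist exceeded 3 log2 CPM in all tissues of iKO ZT18 1 and iKO ZT22 3, although all mice are labelled male.

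In flox mice most of the pathway was low in kidney. Levels between genes are compared per length, as RPKM, which is CPM divided by the gene's length in kilobases, scaled within each tissue. Scd1 was the highest member in liver and WAT, with medians of 641 and 546 RPKM in 18 libraries each against 55.2 in kidney. Thrsp had a median of 347 RPKM in liver, 228 in WAT and 1.91 in kidney, the widest span of the 10. Srebf1 had medians of 62.4, 14.2 and 77.0 RPKM in liver, kidney and WAT, and Mlxipl 49.4, 10.5 and 8.52. Me1 was the only member whose highest median was in kidney, 123 RPKM against 25.4 in liver. Acly also had a slightly higher median in kidney than in liver, 26.1 against 21.6 RPKM. Acly and Fasn, which act close together in the pathway, both had a median of 130 RPKM in WAT.

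All 10 genes differed between flox kidney and liver in edgeR's quasi-likelihood test, with Benjamini-Hochberg adjustment over 22789 genes, of which 62.6% were called. Here TMM factors scale the tissues to each other. With library totals in their place, the median log2 difference of all genes moved from 0.06 to 0.82 for kidney against liver and from 0.40 to 1.5 for WAT against liver. A direction between tissues can therefore depend on the scaling, and directions that rest on TMM alone are named as such. Library totals were not fitted without the set-apart libraries. Scd1, Fasn, Elovl6, Acaca, Srebf1, Mlxipl, Thrsp and Gpam were lower in kidney under both, Thrsp by −7.71 on the log2 scale with TMM and −6.78 with totals. Me1 was higher in kidney under both (1.5 and 2.38), and Acly did not pass with totals (−1.18 and −0.41), nor with TMM without the set-apart libraries (−0.48, adjusted p = 0.21; 60.7% of 23814 genes called), where the other 9 were called in the same directions.

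Between WAT and liver 7 of 10 members were called (74.3% of all genes). Acly (log2 difference 1.37 with TMM, 2.50 with totals) and Acaca (0.97 and 2.20) were higher in WAT and Mlxipl lower (−3.33 and −2.07) under both. For Srebf1 the sign turned with the scaling, from −0.65 to 0.61, and both values passed. Scd1 (−1.04 and 0.14), Thrsp (−1.18 and 0.0056) and Gpam (−0.71 and 0.48) passed with TMM only, and their signs turned too. Fasn (0.58 and 1.83), Me1 (0.65 and 1.85) and Elovl6 (−0.20 and 1.08) passed with totals only. Acaca was not called with TMM once the set-apart libraries were left out (0.12, edgeR adjusted p = 0.786; 71.7% of genes called), while Acly (1.44) and Mlxipl (−3.92) were. Between WAT and kidney 8 of 10 were called (63.5% of all genes) under both scalings, all of them higher in WAT; Me1 and Mlxipl did not pass. Without the set-apart libraries, with TMM, Me1 (−1.92, edgeR adjusted p = 8.82e-05) and Mlxipl (−0.88, adjusted p = 0.00688) were called lower in WAT, and Gpam was not called (0.30, adjusted p = 0.311; 60.9% of genes called).

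**Figure D1:**
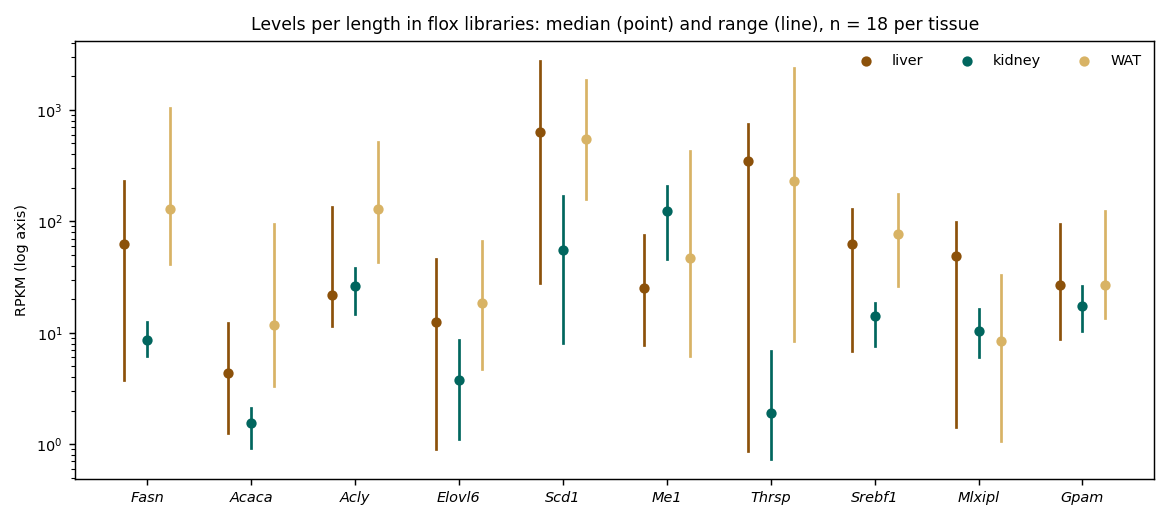
Levels of the 10 genes in flox liver, kidney and WAT, in RPKM on a log axis. Points are medians and lines run from the lowest to the highest of 18 libraries per tissue; Scd1, Thrsp, Fasn, Srebf1, Gpam, Elovl6 and Acaca have their lowest median in kidney, and Me1 has its highest there.

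In iKO liver the pathway was lower. Averaged over the 6 times, 6 of 10 members fell in iKO, none rose, and 9 of 10 had a negative log2 fold change; over all 16582 genes tested 2.64% were called, 1.56% as lower, and 50% were negative. The 6 are Srebf1, Acaca, Fasn, Elovl6, Thrsp and Gpam. The median log2 fold change of the 10 was −1.31, against 0.00 over all genes. In whole tissue, fewer cells of a type and less RNA per cell cannot be told apart. Without the 11 set-apart libraries, over the 5 times that keep both genotypes, 8 of 10 fell, with a median of −1.56, against 7.03% of 17067 genes called and 3.91% called lower.

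Srebf1, the regulator under insulin control, had 38.3 CPM at the lowest, 352 at the median and 723 at the highest in the 18 flox livers, and 25.8, 84.8 and 303 CPM in the 18 iKO livers. The low end of the flox range is the pair of set-apart libraries, at 38.3 and 65.1 CPM. Its log2 fold change was −1.72 (SE 0.268), a 3.29-fold fall, with an adjusted p of 0.00143 in edgeR's quasi-likelihood test. Outside the set-apart libraries the genotypes did not overlap: 16 flox livers had 161 to 723 CPM and 9 iKO livers 50.4 to 125. The fall was then 5.09-fold, with a log2 fold change of −2.35 (SE 0.193, edgeR adjusted p = 1.24e-07).

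Mlxipl, the regulator that responds to sugar, was not called. Its counts ran from 7.90 CPM through a median of 273 to 544 CPM in flox liver and from 8.06 through 109 to 499 CPM in iKO liver. The log2 fold change of −1.05 (SE 0.449) did not pass (edgeR adjusted p = 0.152). The 11 set-apart libraries held 7.90 to 12.5 CPM in flox and 8.06 to 107.9 CPM in iKO, below every other library. Without them the log2 fold change was −0.45 (SE 0.235, edgeR adjusted p = 0.288), and times differed. At ZT2 iKO livers had 259, 499 and 493 CPM against 253, 490 and 375 in flox. At ZT10, which also holds no set-apart library, every iKO liver lay below every flox liver (log2 −1.15, SE 1.10, all libraries, not called). The same order held at ZT14 (−2.25) and ZT18 (−2.11), where some iKO livers are set apart, and neither was called. At ZT6 and ZT22 the genotypes overlapped, as at ZT2.

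Fasn, which builds the fatty acid chain, showed the second largest fold fall of the 10 over all libraries and the largest without the set-apart ones. Flox livers had 40.9 CPM at the lowest, 681 at the median and 2511 at the highest, and iKO livers 50.2, 112 and 468. Its log2 fold change was −2.42 (SE 0.351), a 5.34-fold fall (edgeR adjusted p = 0.00119). Outside the set-apart libraries flox livers had 374 to 2511 CPM and iKO livers 76.3 to 191, with no overlap and a 7.81-fold fall (log2 −2.97, SE 0.377, edgeR adjusted p = 9.52e-05).

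Acaca, which feeds Fasn with malonyl-CoA, fell less, 1.84-fold (log2 −0.88, SE 0.210, edgeR adjusted p = 0.0246). Its counts ran from 21.5 through 74.1 to 210 CPM in flox and from 16.4 through 41.5 to 125 CPM in iKO. The ranges without the set-apart libraries were 57.6 to 210 and 27.1 to 53.9 CPM, which do not overlap, and the fall was 2.43-fold (edgeR adjusted p = 0.000188).

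Elovl6, the elongase of palmitate, fell 3.69-fold (log2 −1.88, SE 0.361, edgeR adjusted p = 0.00739). It ran from 5.85 through 79.8 to 297 CPM in flox and from 5.72 through 23.9 to 65.6 CPM in iKO, and the ranges still overlapped without the set-apart libraries (31.5 to 297 and 13.0 to 65.6 CPM). Scd1, the desaturase, ran from 136 through 3133 to 13560 CPM in flox and from 56.6 through 1179 to 3507 CPM in iKO. Its log2 fold change of −1.55 (SE 0.447) just missed the threshold (edgeR adjusted p = 0.058), and passed without the set-apart libraries at −1.18 (SE 0.290, edgeR adjusted p = 0.0164). Me1 did not pass with them (log2 −0.65, SE 0.220, edgeR adjusted p = 0.0902) or without them (−0.43, SE 0.245, adjusted p = 0.34).

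Thrsp, the Spot 14 gene, showed the largest fold fall of the 10 across all libraries, 8.02-fold (log2 −3.0, SE 0.580, edgeR adjusted p = 0.00739). It ran from 1.90 CPM through a median of 760 to 1628 CPM in flox and from 1.63 through 62.2 to 487 CPM in iKO. The set-apart libraries again held the low end in both genotypes, 1.90 to 6.43 CPM in the flox pair and 1.63 to 121 CPM in the 9 iKO. Without them the fall was 7.20-fold (log2 −2.85, SE 0.329, edgeR adjusted p = 2.68e-05), and the ranges of 223 to 1628 and 52.3 to 487 CPM overlapped.

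Gpam, which starts triglyceride assembly, fell 2.09-fold (log2 −1.06, SE 0.195, edgeR adjusted p = 0.00578), from a median of 181 CPM (58.3 to 635) in flox to 95.5 CPM (36.4 to 173) in iKO. Its log2 fold change without the set-apart libraries was −0.94 (SE 0.232, edgeR adjusted p = 0.017). The flox libraries then had 117 to 635 CPM and the iKO libraries 86.5 to 143 CPM.

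Without the 2 Xist-high libraries 6 members again passed in liver. Leaving out ZT18 left 1 of the 10 called in liver, Fasn (log2 −2.01, edgeR adjusted p = 0.0477), and 19 of all genes. The other 5 kept their sign but did not pass: Thrsp stood at −2.53, Elovl6 at −1.43, Srebf1 at −1.36, Gpam at −0.77 and Acaca at −0.58. Adding the set-apart state as a covariate also left 1, Acly, at a log2 fold change of −1.40 (edgeR adjusted p = 0.0484). With that covariate none of the 6 passed, and the log2 fold change was −0.75 for Thrsp (edgeR adjusted p = 0.531), −0.87 for Elovl6, −1.54 for Fasn (adjusted p = 0.072), −1.16 for Srebf1, −0.70 for Gpam and −0.58 for Acaca.

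**Figure D2:**
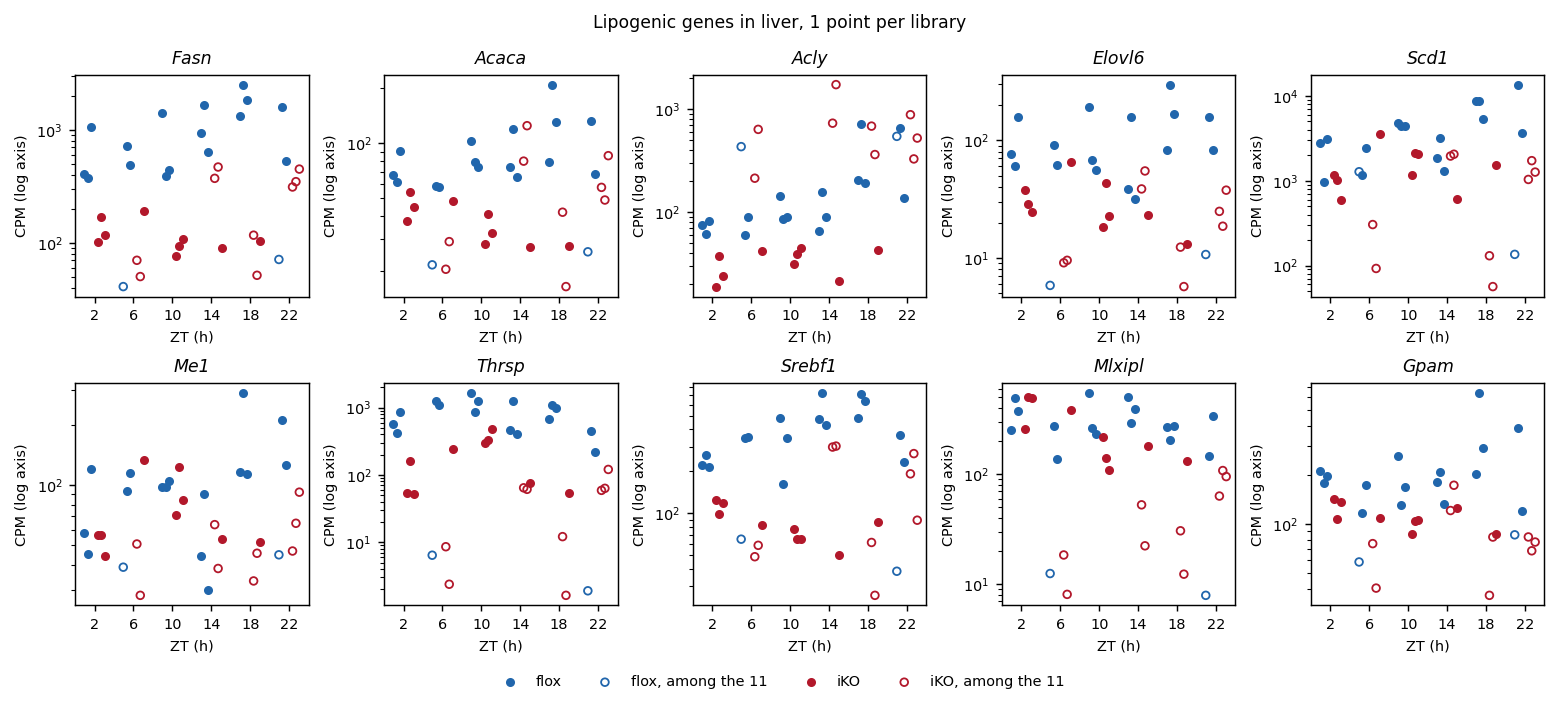
Counts of the 10 genes in each of the 36 liver libraries, in CPM on a log axis, by ZT and genotype. Open symbols are the 11 set-apart libraries; among filled symbols the iKO libraries of Fasn, Srebf1, Acaca and Acly lie below all flox libraries.

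Acly, the step before Acaca, split the libraries. Over all of them it did not pass: flox livers had 60.4 CPM at the lowest, 114 at the median and 712 at the highest, iKO livers 19.0, 130 and 1729, and the log2 fold change was 0.17 (SE 0.396, edgeR adjusted p = 0.823). The 9 set-apart iKO livers held 214 to 1729 CPM and the 9 others 19.0 to 45.4 CPM. The set-apart flox pair held 433 and 544 CPM, within the 60.4 to 712 CPM of the other 16 flox livers. Once these 11 were left out Acly fell 3.58-fold (log2 −1.84, SE 0.348, edgeR adjusted p = 0.00371), and all 9 iKO libraries lay below all 16 flox libraries. Where Acly was high in set-apart livers, Mlxipl and Thrsp were low, and Fasn, at 50.2 to 468 CPM in the 9 iKO, reached above the 76.3 to 191 CPM of the other 9. The markers of macrophages, interferon response and division given above move with these values, and their part in them was not tested.

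**Figure D3:**
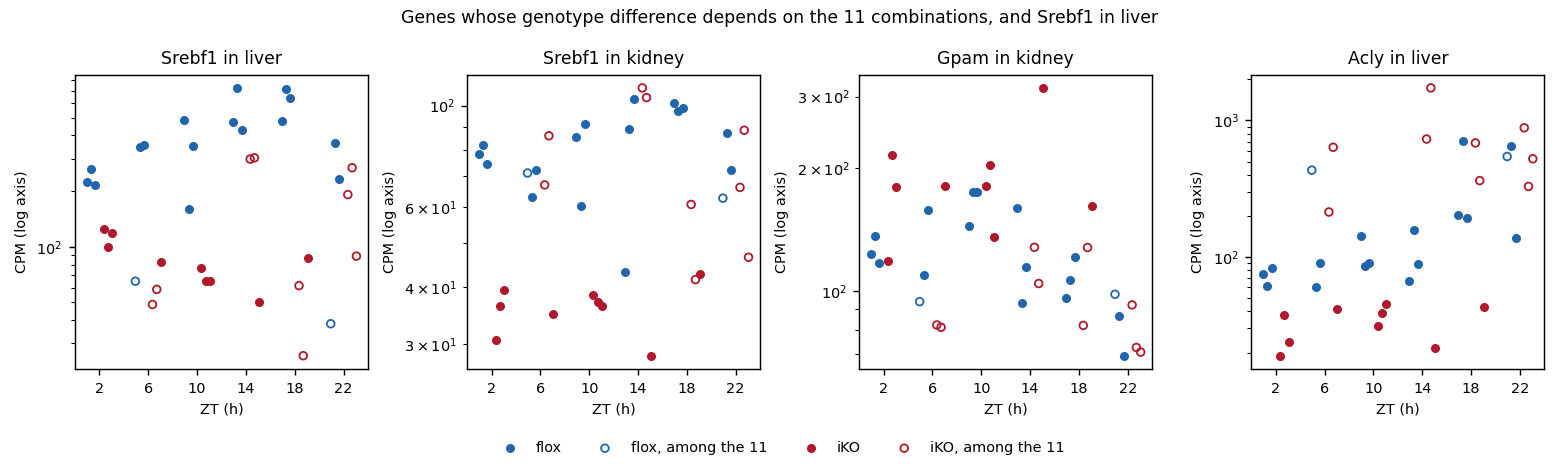
CPM, on log axes, of Srebf1 in liver and kidney, Gpam in kidney and Acly in liver, by ZT, genotype and whether the library is among the 11 set-apart combinations (open symbols). Open iKO symbols lie high for Acly in liver, at 214 to 1729 CPM against 19.0 to 45.4 for filled ones, and filled iKO symbols of Srebf1 in kidney, at 28.3 to 42.7 CPM, lie below all filled flox symbols.

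A count chosen after the values were seen sets this separation beside all genes. Outside the set-apart libraries, 7 of 16582 genes in liver (0.0422%) had all 9 iKO libraries below all 16 flox libraries in CPM. Among them, 4 are members: Fasn, Acly, Srebf1 and Acaca. The other 3, named for this count alone, are Insig1 (251 to 696 CPM in flox, 77.8 to 175 in iKO), an SREBP retention protein and itself an SREBP target, Mid1ip1 (20.5 to 133 and 5.03 to 13.0), a relative of Thrsp that binds acetyl-CoA carboxylase, and Pgd (30.5 to 105 and 18.2 to 29.9), an NADPH-forming enzyme. In the other direction 21 genes had all 9 above.

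By time, no member was called at any of the 6 times over all libraries, and the background was 0% at 5 of them and 0.0362% at ZT18 in liver. With 3 libraries a side, 30% of simulated 4-fold changes at ZT18 were recovered, against 94% for the average over times. At ZT18 the differences were nevertheless large. Fasn had 1319, 2511 and 1821 CPM in flox and 117, 51.5 and 104 CPM in iKO, where the first 2 iKO libraries are set apart. Its log2 fold change at ZT18 was −4.38 (SE 0.938, edgeR adjusted p = 0.0659). Srebf1 had 482, 718 and 636 CPM in flox and 61.7, 25.8 and 87.0 in iKO (log2 −3.40, SE 0.702, edgeR adjusted p = 0.0619). Thrsp had 669, 1102 and 998 CPM in flox against 12.1, 1.63 and 54.0. At ZT18, 8 of 10 members had an unadjusted p under 0.05, as did 3284 of the 16582 genes tested, and all members but Acly had every iKO library below every flox library.

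Counting such separation at each time, 7 of 10 members had all 3 iKO livers below all 3 flox at ZT2 (7.5% of all genes), 0 at ZT6 (2.57%), 9 at ZT10 (10.2%), 4 at ZT14 (10%), 9 at ZT18 (10.8%) and 1 at ZT22 (2.97%). No member had all 3 above at any time. Libraries set apart were present at ZT6, ZT14, ZT18 and ZT22 and absent at ZT2 and ZT10, where the separation holds with all 6 libraries outside that set. At ZT10 Fasn had 1404, 390 and 440 CPM in flox against 76.3, 94.3 and 107 in iKO, and Acly had 142, 86.4 and 90.1 against 31.5, 39.2 and 45.4. At ZT2 Thrsp had 581, 421 and 850 CPM in flox against 53.2, 159 and 52.3 in iKO. Fitted without the set-apart libraries, 7 pairs of member and time passed, all lower in iKO. They were Thrsp at ZT2 (edgeR adjusted p = 0.0236; 0.152% of genes called), Fasn and Srebf1 at ZT10 (0.369%), Srebf1 at ZT14 (0.709%) and Thrsp, Srebf1 and Acaca at ZT18 (0.34%). The 4 pairs at ZT14 and ZT18 compare 1 iKO library with 3 flox libraries, with the spread taken from the other groups. Srebf1 at ZT10 had a log2 fold change of −2.27 (edgeR adjusted p = 0.000886). At ZT6 none passed (0.0117%).

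Whether the genotype difference itself changed with time was tested directly. No member passed the joint test of genotype by time in liver (0% of genes), nor the test of the dark against the light part of the effect (0.0121% with all libraries, 0.141% without the set-apart ones). The larger differences at ZT18 are therefore given as values only.

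In flox liver 3 members were higher in the dark once the set-apart libraries were left out. Dark over light, 0 of 10 passed with all libraries (0.452% of genes), where Fasn had 0.97 and Srebf1 0.59 on the log2 scale. Without the set-apart libraries Acly (1.58, SE 0.342, edgeR adjusted p = 0.00979), Scd1 (0.98, SE 0.297, adjusted p = 0.0445) and Srebf1 (0.63, SE 0.178, adjusted p = 0.0283) rose in the dark, beside 9.18% of all genes. A 24 h cosine passed there for Fasn, Acaca, Acly and Srebf1 (8.24% of genes), with Srebf1 peaking earliest of these at ZT 15.6 (2.36-fold from trough to peak), then Fasn at 17.6 (3.08-fold), Acaca at 17.9 (2.02-fold) and Acly at 19.1 (5.42-fold). The spread of these peak times was not tested. Over all libraries no member had a 24 h cosine in flox (0.772% of genes) or in iKO (0.0844%). With time as a factor, 0 members passed in flox liver over all libraries (4.11% of genes) and 3 without the set-apart ones (11.7%), Srebf1, Acly and Scd1.

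In iKO liver, Acly was the only member that differed between dark and light with all libraries (log2 3.03, SE 0.604, edgeR adjusted p = 0.0117; 14% of genes). Set-apart iKO livers make up 7 of 9 dark and 2 of 9 light libraries, and without them no member passed (0.229% of genes), nor without the Xist-high pair. With time as a factor Acly passed too (edgeR adjusted p = 0.0247; 11.6% of genes), and without the set-apart libraries it was Thrsp that passed (adjusted p = 0.0478; 1.82%). That test and the cosine of iKO liver without the set-apart libraries rest on 9 libraries, with 1 at each of ZT6, ZT14 and ZT18 and none at ZT22. Thrsp was the only member with a 24 h cosine in iKO liver without the set-apart libraries (edgeR adjusted p = 0.0378; 0.861% of genes), with its peak at ZT 8.63 and 10.9-fold from trough to peak. In flox its cosine peaked at ZT 10.2, 2.31-fold. No member's cosine differed between genotypes (0% of genes).

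In kidney no member was called over all libraries, and Srebf1 fell once the set-apart ones were left out. Averaged over times, 0 of 10 members passed (0.164% of 17630 genes), and the median log2 fold change was −0.16. Srebf1 came closest, at −0.59 (SE 0.140, edgeR adjusted p = 0.0685). Its flox libraries had 43.3 CPM at the lowest, 80.1 at the median and 103 at the highest, and its iKO libraries 28.3, 42.1 and 109. At ZT2 it had 78.3, 81.8 and 74.6 CPM in flox against 30.6, 36.3 and 39.3 in iKO, and at ZT10 85.2, 60.2 and 91.1 against 38.4, 37.1 and 36.4. No member passed at a single time, where ZT22 had the most genes called (0.0113%). At ZT14 the first 2 iKO kidneys, both set apart, had 109 and 104 CPM, above all 3 flox libraries, and the third had 28.3.

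Without the set-apart libraries kidney Srebf1 fell 2.26-fold (log2 −1.18, SE 0.135, edgeR adjusted p = 0.000204; 0.422% of 18245 genes called), with 43.3 to 103 CPM in 16 flox libraries and 28.3 to 42.7 in 9 iKO libraries. It was the only one of 17630 kidney genes (0.00567%) whose 9 iKO libraries all lay below all 16 flox libraries, and none lay above. Gpam went the other way there and rose 1.49-fold (log2 0.58, SE 0.125, edgeR adjusted p = 0.0429). Its CPM ran from 69.3 to 175 in the 16 flox libraries and from 118 to 315 in the 9 iKO libraries, while the set-apart iKO libraries held 70.7 to 128. Srebf1 also passed over all libraries in DESeq2 (log2 −0.58, adjusted p = 0.00962), and in edgeR without ZT14 (−0.70, adjusted p = 0.00464), without flox ZT14 1 (−0.64, adjusted p = 0.0434) or without iKO ZT14 3 (−0.51, adjusted p = 0.0364). The effect on Gpam differed between liver and kidney by −1.25 (SE 0.335), which did not pass in edgeR's test of that difference (adjusted p = 0.0736).

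**Figure D4:**
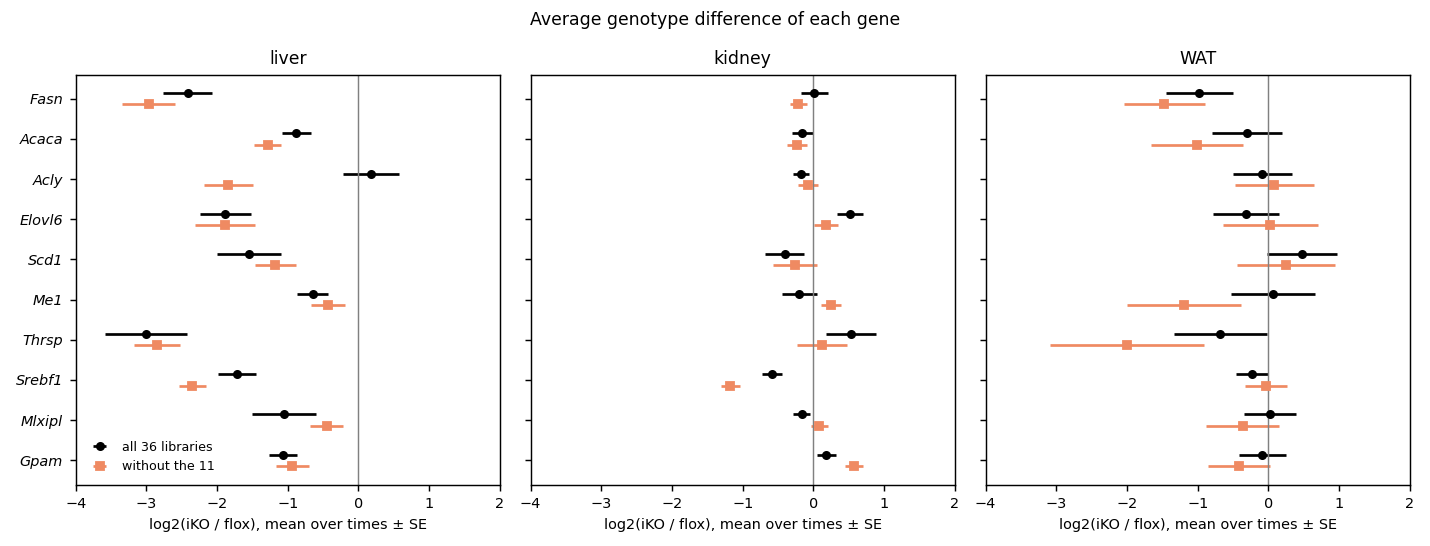
Average log2 fold change of iKO over flox for the 10 genes in liver, kidney and WAT, with standard errors, for all 36 libraries of a tissue and without the 11 set-apart combinations. Liver values lie below 0 except Acly over all libraries, kidney Srebf1 moves from −0.59 to −1.18, and WAT values have wide errors.

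Thrsp and Fasn were highest in kidneys that also held adipocyte RNA. Thrsp reached 88.4 CPM in iKO ZT22 3 and 28.5 in iKO ZT6 3, against 15.1 at the highest in flox, and Fasn had 460 and 233 CPM in the same libraries against 137 at the highest in flox. The mean of 10 adipocyte markers, all 10 of which were counted, was 5.49 and 4.75 log2 CPM in those libraries, within an overall range of 0.667 to 4.70 in flox and 0.446 to 5.49 in iKO, and Adipoq was at 0 in 8 flox and 6 iKO kidneys. With that mean as a covariate 1 member passed in kidney, Srebf1, at an unchanged log2 fold change of −0.59 and barely under the threshold (edgeR adjusted p = 0.04998). Me1 had 98.4 to 510 CPM in the set-apart kidneys and 196 to 902 in the others. Elovl6 rose in the dark in iKO kidney (log2 1.03, SE 0.261, edgeR adjusted p = 0.0244; 10.4% of genes), but did not pass without the set-apart libraries (0.00548% of genes), nor without the Xist-high pair, nor without any 1 of iKO ZT6 3, ZT14 2, ZT18 1, ZT18 2 and ZT22 3. No member had a 24 h cosine in flox kidney (5.07% of genes) or iKO kidney (4.22%). With time as a factor 6 members passed in iKO kidney (40% of genes), namely Elovl6, Thrsp, Fasn, Srebf1, Gpam and Scd1, and without the set-apart libraries 1 did, Fasn (edgeR adjusted p = 0.0138; 0.236%). In flox kidney the counts were 0 (12.4% of genes) and 1, Elovl6 (edgeR adjusted p = 0.024; 6.83%).

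In WAT no gene was called for the average over times, members included (0% of 21402 genes), with 805 genes at an unadjusted p under 0.05 and 25 genes called in DESeq2, no member among them, and none was called without the set-apart libraries either. Over all libraries Fasn had the lowest estimate, −0.98 (SE 0.475, unadjusted p = 0.049, edgeR adjusted p = 1). Its flox libraries ran from 452 CPM through a median of 1427 to 11458, and its iKO libraries from 218 through 693 to 7351. Thrsp was at −0.68 and Srebf1 at −0.23 on the log2 scale. Leaving out 1 library moved Fasn to between −1.30 and −0.51 (the latter without flox ZT6 1) and Thrsp to between −1.30 and −0.25 (the latter without flox ZT18 3). Without the set-apart libraries Thrsp had the lowest estimate, −2.0 (SE 1.09, edgeR adjusted p = 0.995), and Fasn stood at −1.47 (adjusted p = 0.982). At single times, all 3 iKO libraries lay below all 3 flox libraries in 1 case, Me1 at ZT22 (1.95% of genes), with 938, 1646 and 820 CPM in flox against 238, 686 and 170 in iKO.

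These WAT libraries differed in tissue content. The mean of 10 adipocyte markers ran from 6.61 to 11.9 log2 CPM in flox and from 4.46 to 12.0 in iKO, and 11 epididymis and testis markers from −2.90 to 9.23 over all libraries, so that Crisp1, an epididymal gene, reached 35710 CPM while Adipoq ran from 7.81 to 3682 CPM. A mean of skeletal muscle markers ran from −1.83 to 12.0. In counts simulated with the spread of the WAT libraries, 19% of 2-fold and 78% of 4-fold changes of the average were recovered. In liver these shares were 61% and 94%. A change of the size seen for Gpam or Acaca in liver could therefore go uncalled in WAT. Genes were simulated independently of each other, so the mixture itself was not simulated. With the adipocyte and epididymis means as covariates again 0 members passed.

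**Figure D5:**
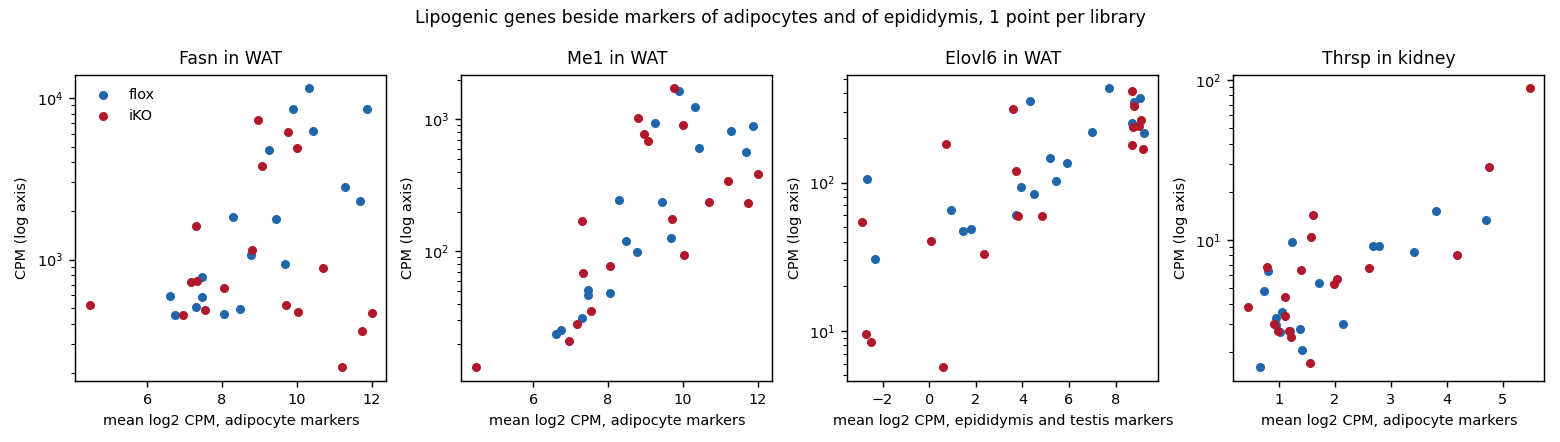
Member counts, in CPM on a log axis, against tissue content, in mean log2 CPM of marker genes, by library and genotype: Fasn and Me1 in WAT against adipocyte markers, Elovl6 in WAT against epididymis and testis markers, and Thrsp in kidney against adipocyte markers. Kidney Thrsp is highest, 88.4 CPM, in the library with the highest adipocyte mean, 5.49.

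Whether the genotype effect differed between tissues was tested in 1 fit of the libraries of all 3 tissues. That fit took every library as independent, also those that share genotype, time and number and may come from the same mouse. Fasn (log2 difference of liver from kidney −2.43, SE 0.511, edgeR adjusted p = 0.0107), Thrsp (−3.55, SE 0.789, adjusted p = 0.0163) and Elovl6 (−2.40, SE 0.521, adjusted p = 0.0131) had a lower effect in liver than in kidney, a comparison in which 0.391% of 22789 genes were called. Fitted alone, the kidney effects of these 3 were 0.01, 0.54 and 0.52, none of which passed. For Srebf1 the effect was lower in liver than in WAT (−1.46, SE 0.309, edgeR adjusted p = 0.0134; 0.549% of genes), and no other member passed there. Without the set-apart libraries Fasn (−2.75, edgeR adjusted p = 0.0175; 0.063%) and Srebf1 (−2.31, edgeR adjusted p = 5.41e-05; 0.34%) passed again, while Thrsp (−2.97, adjusted p = 0.342) and Elovl6 (−2.07, adjusted p = 0.391) did not. With the 3 tissues that share genotype, time and number treated as a block in limma-voom, none of the 3 passed against kidney, Fasn standing at −2.04 (adjusted p = 0.0702). Leaving out the libraries numbered 2 in every group ended all 4 calls, and leaving out those numbered 3 ended the 3 calls against kidney. Without those numbered 1, Fasn and Thrsp were still called against kidney and Elovl6 was not. Without the Xist-high pair Fasn was still called, and Thrsp (−3.18, edgeR adjusted p = 0.085), Elovl6 (−2.33, adjusted p = 0.0525) and Srebf1 against WAT (−1.43, adjusted p = 0.0535) were not. With library totals in place of TMM, Thrsp (−3.38, edgeR adjusted p = 0.0332) passed against kidney and Fasn (−2.16, adjusted p = 0.0515), Elovl6 (−2.17, adjusted p = 0.0574) and Srebf1 against WAT (−1.18, adjusted p = 0.0953) did not.

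Other genes of the pathway were taken from 5 lists of 67 genes, and in liver 9 fell and 1 rose among 65 tested (2.64% of all genes called). Of the 12 genes of sugar entry and feeding response, 7 fell, with a list median of −1.34 against 0.00 over all genes. Among them were Pklr, the liver pyruvate kinase (log2 −2.58, edgeR adjusted p = 0.00578), Angptl8, a feeding-induced hormone of lipid partitioning (−2.37, adjusted p = 0.00685) and Tkfc, which phosphorylates glyceraldehyde (−1.35, SE 0.201, adjusted p = 0.00119). Of 15 genes of SREBP processing, LXR and MLX partners, Mid1ip1 (−1.64, SE 0.316, edgeR adjusted p = 0.00739) and Mlx (−0.48, adjusted p = 0.0138), the partner of ChREBP, fell and Pparg (0.83, adjusted p = 0.0214) rose. None of 12 genes of acetyl-CoA, citrate and NADPH supply passed, with Acss2, which makes acetyl-CoA from acetate, at −1.57 (edgeR adjusted p = 0.058), nor did any of 14 genes of other elongation and desaturation or of 12 of triglyceride assembly.

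Without the set-apart libraries 17 of the 65 genes tested fell and 9 rose in liver, where 7.03% of all genes were called, 3.91% as lower and 3.12% as higher. Insig1 (log2 −1.61, edgeR adjusted p = 2.99e-06), Mid1ip1 (−2.69, adjusted p = 1.89e-05) and Tkfc (−1.53) were among those that fell, as were Acss2 (−1.16), Pgd (−0.99) and Tkt (−0.70), all in the supply list, of which 4 of 12 fell. In kidney, Fads1, a desaturase of polyunsaturated fatty acids, was the only list gene called (−0.59, SE 0.118, edgeR adjusted p = 0.03), and without the set-apart libraries Scd2 (−0.68) and Txnip (1.13) were. In WAT none passed.

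By Spearman correlation with the mean of the members' scaled log2 CPM over the 36 libraries of a tissue, the genes outside the set whose pattern was nearest in liver were Acss2 (0.887), Enpep (0.87), Pygl (0.865), Insig1 (0.863) and Pklr (0.863), of 11308 ranked. In WAT they were Agpat2 (0.907), Gpd1 (0.868), Pdhb (0.867), Igfals (0.863) and Slc25a1 (0.862). The libraries share depth, genotype, tissue content and the set-apart state, and these values are a description. By the same measure against the mean of the other members, the members most alike in liver were Fasn (0.938), Elovl6 (0.937) and Acaca (0.898), and Acly was the least (0.0268). In kidney Elovl6 was the least alike (−0.237) and in WAT it was again (0.00103), while Acly and Acaca (0.747 each) were the most alike in kidney and Acaca (0.897) in WAT.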

How the data were processed

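The source is 1 deposited table of raw read counts per gene. Trizol extraction, the NEBNext Ultra RNA kit and 150 bp reads on an Illumina HiSeq are given per the labels' protocols. The submitters' processing notes list DESeq2 1.16.1, HISAT2 2.0.4 and featureCounts 1.5.0-p3, which the authors used with GRCm38 (mm10); which settings were used, the strand setting of the counting included, is not given in the sources used here. Start and end positions in the deposited table match GENCODE M21 for 1494 of 52083 shared identifiers (2.87%), so positions were taken from GENCODE M21.

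From the counts, each tissue was fitted alone in edgeR 4.0.16 (R 4.3.3) with 12 groups of genotype and time, filterByExpr, TMM factors and robust quasi-likelihood tests; the threshold was a Benjamini-Hochberg adjusted p of 0.05 over all genes tested. The fit of the 3 tissues together used a trended dispersion. CPM and RPKM use TMM factors computed within a tissue, and log2 CPM a prior count of 2. A 24 h cosine replaced time for rhythms. A gene counted as called where its adjusted p passed. The 3 libraries of a group differed by more than sampling noise in every pair (lowest chi-square per degree of freedom 10.5). The tests were tested on simulated counts in which 200 genes were changed. These counts were drawn for each gene alone, without tissue mixture or the set-apart state. Alternatives used DESeq2 1.42.0, its size factors, no filter, library totals, limma 3.58.1, a replicate block, marker covariates and left-out libraries, times and the 11 set-apart and 2 Xist-high combinations; the covariates and the library totals were chosen after seeing the data.

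The members, gene lists and the set-apart line were chosen with earlier results of these data known. All 10 members are named throughout. Of each other list, up to 3 genes with the smallest p per tissue and set of libraries are named, and the 5 genes nearest in pattern. Some genes that this rule takes in are not reported here.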

Additional observations from a re-analysis of the deposited data

Results flagged for a closer look

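Results are given here where the genotype effect of a member differed between tissues by the test of that difference in edgeR, with Benjamini-Hochberg adjusted p-values over 22789 genes. The effect of iKO on Fasn was lower in liver than in kidney by a log2 difference of −2.43 (adjusted p = 0.0107). Liver iKO medians were 112 CPM against 681 in flox, and kidney medians 80.8 against 95.2. The same difference was −3.55 for Thrsp (adjusted p = 0.0163) and −2.40 for Elovl6 (adjusted p = 0.0131). Kidney Thrsp had a flox median of 4.17 CPM, and Elovl6 one of 24 CPM. For Srebf1, the effect in liver was lower than in WAT by −1.46 (adjusted p = 0.0134), with WAT medians of 434 CPM in flox and 391 in iKO. Leaving out the libraries numbered 2 in every group ended all 4 calls, with differences of −2.16, −2.89, −1.92 and −1.44 in the order above. Leaving out those numbered 3 ended the 3 calls against kidney as well. Elovl6 also failed without those numbered 1, so it was called in 0 of these 3 fits. With tissues of the same genotype, time and number as a block in limma-voom, no call against kidney remained. Without the set-apart libraries Thrsp (−2.97) and Elovl6 (−2.07) did not pass. With library totals Fasn, Elovl6 and Srebf1 did not, and without the Xist-high pair only Fasn was still called. The kidney effect on Thrsp moved from 0.54 to 0.128 without iKO ZT22 3.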

How the results depend on the processing

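In liver the 6 members called for the average effect were called in all 36 fits that left out 1 library, which called 6 to 9. The count was 1 without ZT18, Fasn. It was 1 with the set-apart state as a covariate too, but that was Acly, and none of the 6 passed there. The other 11 alternatives gave 5 to 8. Member and time pairs called in liver, 0 at first, were 9 in DESeq2, 7 without the 11 combinations, 1 with the covariate, 6 with each time fitted alone and 0 to 8 with 1 library left out (8 without iKO ZT18 3). Dark against light gave 3 in flox liver and 0 in iKO liver without the 11, 0 in iKO liver without the Xist-high pair and 1 to 2 with 1 library left out; rhythms gave 4 in flox liver and 1 in iKO liver without the 11, and 1 in iKO liver with time as a factor. Kidney averages gave 1 in DESeq2, 2 without the 11, 1 without ZT14, 1 with the adipocyte covariate and 0 to 1 with 1 library left out (1 without flox ZT14 1 or iKO ZT14 3), and kidney pairs 0 to 1. Dark against light in iKO kidney gave 3 in DESeq2, 0 without the 11, 0 without the Xist-high pair and 0 to 5 with 1 library left out, being 0 without iKO ZT6 3, ZT14 2, ZT18 1, ZT18 2 or ZT22 3; time as a factor gave 6 there. Between tissues, leaving out 1 replicate number gave 9 to 10 (kidney against flox liver), 8 (WAT against kidney) and 3 to 6 (WAT against liver), and 0 to 2 and 0 to 5 for the effect in liver against kidney and WAT. For liver against kidney the block in voom gave 0, leaving out the 11 gave 1, leaving out the Xist-high pair 1 and library totals 1, and for liver against WAT both of the last gave 0. The cause of these changes was not tested, beyond the fewer libraries in each fit. The number of all genes called moved between fits as well. For the liver average it was 438 at first, 1609 in DESeq2 and 19 without ZT18. Time as a factor in iKO kidney called 7058 of 17630 genes. For single times fitted alone, and for DESeq2 beyond the average, no share of all genes is given. Those counts show only that calls moved.

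Signs that turned are of members not called over all libraries. Acly in liver was −1.84 without the 11, −0.37 without ZT14 and −1.40 with the covariate (−0.0281 to 0.395 over left-out libraries), and Mlxipl 0.35 with the covariate. In kidney Fasn (0.01) was −0.018 with the replicate block, −0.216 without the 11, −0.218 without the Xist-high pair, −0.0581 without ZT6, −0.242 without ZT22 and −0.112 with the adipocyte covariate (−0.19 to 0.0858); Acly was 0.0147, Me1 0.31 and Mlxipl 0.11 with the set-apart covariate, and Me1 0.25 and Mlxipl 0.0854 without the 11. In WAT Acly was 0.0849 without the 11, 0.0545 without ZT6 and 0.0235 without ZT22 (−0.38 to 0.18), Elovl6 0.0282 without the 11, and Gpam 0.067 with marker covariates (−0.26 to 0.11), while Acaca ran from −0.57 to 0.13. WAT Me1 was −0.0523 with the block, −1.20 without the 11, −0.13 without the Xist-high pair, and −0.0783, −0.313 and −0.0149 without ZT10, ZT14 and ZT18 (−0.31 to 0.43). WAT Mlxipl was −0.00759 with no filter, −0.37 without the 11, −0.0161 without the Xist-high pair, −0.37 without ZT10 and −0.18 without ZT14 (−0.21 to 0.25). The effect in liver minus kidney for Acly was −1.76 without the 11, and in liver minus WAT −1.92 for Acly and 0.77 for Me1.

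For libraries with the same number in flox and iKO, deviations correlated at a median of 0.0416 (liver), 0.027 (kidney) and 0.113 (WAT), with 6, 5 and 10 of 18 pairs over 0.1 and 7, 7 and 8 best matched by their own number, in that order. Since not every pair was over 0.1 in any tissue, the samples were taken to share only a number. With the replicate block 7 members were called in liver and 0 in kidney and WAT. All genes called in liver were 438, 1609 in DESeq2 and 796 with the block. At single times 3 libraries a side limit what could be called.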

Other observations

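Some list genes went against the members in iKO liver. Without the 11 set-apart libraries, where 3.12% of all genes were called higher and 3.91% lower, 3 of 12 triglyceride assembly genes rose, Lpin2, a phosphatidate phosphatase (log2 0.96), Dgat1, which makes triglyceride from diglyceride (0.53), and Agpat3, an acyltransferase (0.46), and none fell. Of 14 tested genes of other elongation and desaturation 3 rose, among them Elovl3, an elongase of saturated chains (2.11), and Hacd3, a dehydratase of the elongation cycle (0.44), and 1 fell, Elovl1 (−0.38). Txnip, which sugar induces through ChREBP, rose by 1.44. With all libraries none of the triglyceride or elongation genes passed.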
